A study of Mus musculus with 2 samples.

Results

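Immediate early gene high microglia were sorted brain cells rich in RNA of Fos, Egr1, Ier2, Dusp1 and Atf3. A cell was a member when its raw counts of these 5 genes summed to at least 5 UMIs, where a UMI is a molecular tag counted once per captured RNA molecule. There were 850 such cells among 7903 cells with 1 hashtag (10.8%), of which 809 carried an oil hashtag and 41 a tamoxifen (TAM) hashtag. They were compared with the 4802 cells in which none of the 5 genes had a UMI, called zero cells here, and 2251 cells had a sum of 1 to 4.

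All mice carried 1 copy of Cx3cr1CreERT2(Litt), an allele in which the fractalkine receptor gene Cx3cr1 drives a tamoxifen-inducible Cre recombinase. They were 12 weeks old and were given either the oil vehicle or tamoxifen, the treatment lasting 4 weeks per the labels. CD11b+ CD45+ Ly6G- CD206- cells from PBS-perfused brains were marked with antibody-borne barcodes (hashtags), Oil1 to Oil5 and TAM1 to TAM5, and run as 1 pool by droplet 3′ RNA sequencing. The labels do not say whether each hashtag was 1 mouse. The p-values therefore rest only on variation from hashtag to hashtag, part of which may be technical. The edgeR test shares estimates of this variation across genes, so the SE and p-value of 1 gene can understate its own spread between hashtags. Mice without the Cre allele were not analysed here, so effects of tamoxifen itself and of the Cre it activates cannot be told apart.

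Immediate early genes are transcribed within minutes of a stimulus without new protein synthesis, mostly through transcription factors that already sit at their promoters. Fos and Jun proteins pair to form AP-1, Egr1 is a zinc finger activator, and Dusp1 and Zfp36 close the loop by removing phosphate from MAP kinases and by speeding decay of short-lived mRNAs. In microglia this programme is known to follow injury, neuronal activity and also the handling of the tissue during cell isolation.

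Singlets had a median of 4919 gene UMIs. High cells had a median of 5554 UMIs in oil and 6060 in TAM, against 4614 and 4814 in zero cells. The summed libraries of high cells held 153044 to 1862907 UMIs in oil hashtags but only 11486 to 105819 in TAM hashtags, so the precision in TAM is low. Microglial markers were common in the members: every class had a median of 14 of 14. The median marker was found in 99.1% of oil high cells and 96.3% of oil zero cells. The summed level of the 14 markers overlapped between the classes in oil, but in TAM it was 23338 to 26148 CPM in high cells and 27015 to 28422 CPM in zero cells. Pooled over hashtags, markers of CNS-associated macrophages summed to 11.8 CPM (counts per 1000000 UMIs) in oil high cells and 11.2 CPM in oil zero cells. Those of monocytes and dendritic cells summed to 100.5 and 109.6 CPM. Between oil hashtags the macrophage sum ranged from 2.36 to 124 CPM in high cells and from 6.70 to 15.7 CPM in zero cells. The monocyte and dendritic cell sum ranged from 14.9 to 457 CPM in high cells and from 19.3 to 309 CPM in zero cells. In TAM high cells 7 of 8 macrophage markers and 9 of 10 monocyte and dendritic cell markers were at 0. All 5 neuronal markers were at 0 there too. In TAM zero cells the median marker of these lists was found in only 0.14, 0.88 and 0.062% of cells, in this order. Zeros in 41 TAM high cells are too few observations of such rare markers to decide whether other cell types were among them. Barcodes with several hashtags were left out; 15.4% of those passing the filters would have met the sum, at a median of 5803.5 UMIs. No doublet caller was run, so doublets within 1 hashtag remain.

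The share of high cells ranged widely between oil hashtags. It was 47.7% in Oil1 (exact binomial 95% interval 44.0 to 51.5%), 26.7% in Oil2, 22.7% in Oil3, 8.69% in Oil4 and 2.86% in Oil5 (1.84 to 4.23%). In TAM it was 2.07, 1.62, 0.856, 0.247 and 0.385% in TAM1 to TAM5. At this limit no TAM hashtag reached the lowest oil hashtag, and the means were 21.7% ± 17.5 (SD, n = 5) in oil and 1.03% ± 0.788 (SD, n = 5) in TAM. The spread within oil, from 24 to 337 cells, was itself larger than the gap between Oil5 and TAM1. After each cell was thinned to 3000 UMIs, which left out 284 oil and 344 TAM cells, the range was 1.04 to 32.4% in oil and 0 to 0.718% in TAM. With a sum of at least 10 as the limit the treatments overlapped: TAM2 at 0.808% (5 cells) and TAM3 at 0.428% (4 cells) lay above Oil5 at 0.358% (3 cells). Because the cells were chosen with the level of these genes in each treatment known, these shares are a description and were not tested. The order in which the brains were handled is not given in the sources used here. Read from sex-linked genes, Oil1, Oil2, TAM1 and TAM2 were male and the others female.

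**Figure D1:**
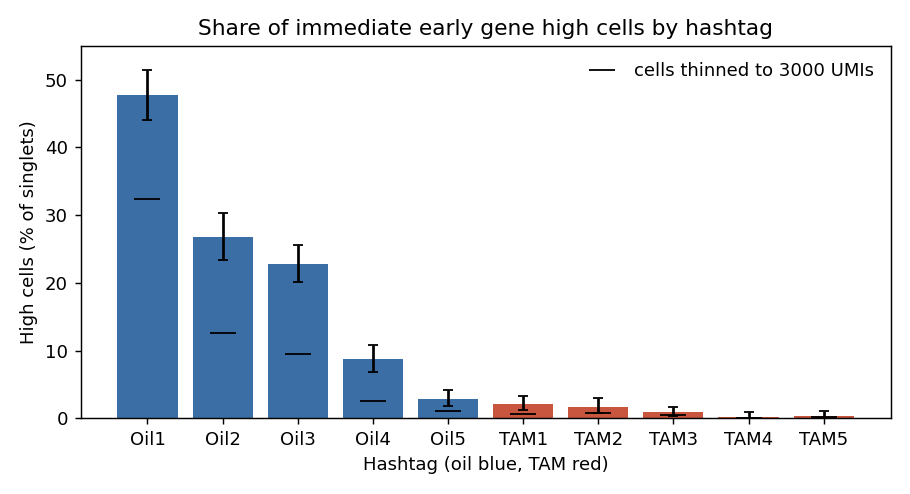
Share of singlets with at least 5 summed UMIs of Fos, Egr1, Ier2, Dusp1 and Atf3 in each hashtag (bars, %; lines are exact binomial 95% intervals covering counting error only), and the same after thinning to 3000 UMIs (dashes). Oil hashtags lie between 2.86 and 47.7%, TAM hashtags between 0.247 and 2.07%.

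The sum that chose the cells had no gap at its limit: 208 cells had a sum of 4 and 173 a sum of 5, with median depths of 5133 and 5255 UMIs. The median sum was 7 in the high cells of either treatment and the highest was 40. Over all cells the mean sum was 5.67 UMIs per cell in Oil1 and 0.168 in TAM5, the highest and lowest of the 10 hashtags. The share of these UMIs that came from free RNA was not tested.

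The same sum was reached with different genes in the treatments. These values chose the cells and carry no test. In oil high cells Egr1 gave 37.0% and Fos 33.6% of the 5 genes' UMIs, followed by Ier2, a short-lived nuclear regulator, at 13.6%, Atf3 at 9.14% and Dusp1 at 6.59%. In TAM high cells Egr1 gave 47.9% and Atf3, a stress-induced partner of AP-1 proteins, 36.0%, while Fos gave 10.7%, Ier2 4.50% and Dusp1 0.948%. The share of Atf3 was 7.96, 10.7, 10.0, 12.0 and 4.33% in Oil1 to Oil5 and 35.6, 15.9, 50.4, 57.1 and 48.8% in TAM1 to TAM5. The treatments did not overlap in it. Of the Atf3 UMIs in TAM high cells, 123 came from 16 cells with at least 5 UMIs of Ccl3 and Ccl4, and 29 from the other 25 cells. Fos had 14 and 31 UMIs in these 2 groups. The share of Dusp1 lay between 4.03 and 8.84% in oil hashtags and between 0 and 1.59% in TAM hashtags. Fos was found in 76.5% of oil and 48.8% of TAM high cells, Egr1 in 87.9 and 90.2%, and Dusp1 in 38.1 and 7.32%. Most members held several of the genes: 557 of the 809 oil cells had UMIs of 3 or more of the 5, and 19 of the 41 TAM cells did.

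**Figure D2:**
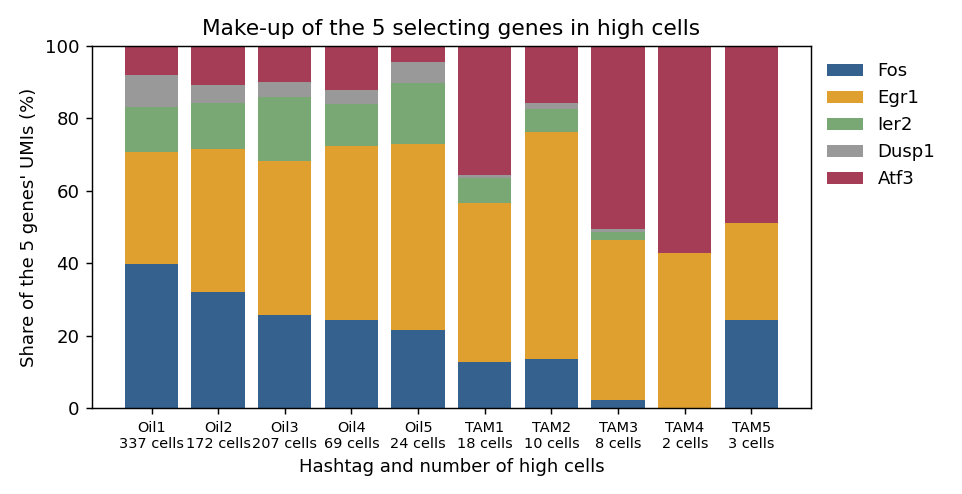
Make-up of the UMIs of the 5 selecting genes in the high cells of each hashtag (stacked to 100%), with the number of cells under each bar. Atf3 takes 4.33 to 12.0% of the bar in oil hashtags and 15.9 to 57.1% in TAM hashtags, of which TAM4 rests on 2 cells and TAM5 on 3.

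The promoters of Fos, Dusp1, Atf3 and Btg2, the non-selecting gene with the smallest p in oil, are shown because each holds the core of the cyclic AMP response element (CRE), a site known to be bound by CREB and ATF proteins. Each runs from 250 bases before to 50 bases after a RefSeq transcription start (GRCm38.p6), read along the gene, and capitals mark TGACGT or its reverse complement. Fos lies at chr12:85473640-85473939 on the plus strand, and Dusp1 at chr17:26508423-26508722, Atf3 at chr1:191183284-191183583 and Btg2 at chr1:134079106-134079405 on the minus strand.
Fos: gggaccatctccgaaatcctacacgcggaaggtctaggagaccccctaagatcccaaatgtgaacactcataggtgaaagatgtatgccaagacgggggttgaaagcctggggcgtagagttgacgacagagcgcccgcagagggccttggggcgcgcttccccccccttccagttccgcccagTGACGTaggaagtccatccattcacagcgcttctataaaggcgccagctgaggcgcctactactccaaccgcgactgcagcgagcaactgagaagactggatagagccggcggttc
Dusp1: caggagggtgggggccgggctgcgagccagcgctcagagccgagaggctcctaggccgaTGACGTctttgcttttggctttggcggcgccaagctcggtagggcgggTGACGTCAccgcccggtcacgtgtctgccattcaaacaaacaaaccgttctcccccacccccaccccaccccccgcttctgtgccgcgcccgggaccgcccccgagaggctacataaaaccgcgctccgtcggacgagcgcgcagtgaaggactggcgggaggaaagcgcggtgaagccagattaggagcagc
Atf3: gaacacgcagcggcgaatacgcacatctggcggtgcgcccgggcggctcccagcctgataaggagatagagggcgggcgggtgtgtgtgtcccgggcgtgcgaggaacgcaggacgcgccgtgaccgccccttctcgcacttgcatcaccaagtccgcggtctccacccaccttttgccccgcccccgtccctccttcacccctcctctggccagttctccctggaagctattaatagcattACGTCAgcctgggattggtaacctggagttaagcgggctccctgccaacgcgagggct
Btg2: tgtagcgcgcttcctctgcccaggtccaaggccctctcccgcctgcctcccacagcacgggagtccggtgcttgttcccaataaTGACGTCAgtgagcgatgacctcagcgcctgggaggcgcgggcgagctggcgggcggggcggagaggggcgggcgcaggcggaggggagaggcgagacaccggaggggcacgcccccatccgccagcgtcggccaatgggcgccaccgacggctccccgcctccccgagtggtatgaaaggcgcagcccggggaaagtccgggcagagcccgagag
The core begins 66 bases before the start in Fos, 8 bases before it in Atf3 and 191 bases before it in Dusp1. Dusp1 and Btg2 also hold the full palindrome TGACGTCA, beginning 143 and 166 bases before the start, which contains the core on both strands. The core was in 7.51% of 32851 promoters of the same length, in 12.5% of the 9374 promoters of genes tested in oil, and in 35 of the 179 promoters (19.6%) of genes that rose in oil high cells. The promoters used for Jun and Ccl3 held no match to it. The promoter set had no entry for Egr1, Ier2 or Ccl4, so those promoters were not searched. The other motifs searched on both strands, AP-1 (TGANTCA), the EGR site (GCGNGGGCG), the CArG box and the kappaB motif, were in 5.59, 13.97, 1.68 and 6.70% of the promoters of the genes that rose, and in 4.58, 10.7, 1.21 and 5.05% of those of tested genes. A match is a description of the letters, not of binding, and the core was added to the motifs after these values had been seen.

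In oil hashtags the high cells differed from zero cells by a broad rise of other stimulus-response genes and by few falls. Of 9104 genes tested, 172 rose (1.89%) and 3 fell (0.033%), 175 in all (1.92%), with the hashtag as a block (edgeR quasi-likelihood test, adjusted p below 0.05). The median log2 fold of all tested genes was 0.00, and 888 genes had an unadjusted p below 0.05. Without Oil3 the calls fell to 105. The number of genes that fell was 13 with library size scaling, 25 without Oil5 and 18 with a sum of at least 3. The 5 selecting genes took no part in any test or count. The cells were still chosen on genes of the same programme, so a rise of genes that travel with them is partly built into the choice, and what was measured is which genes did so and by how much.

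Among AP-1 and CREB family factors 5 of 11 tested members rose and none fell (median log2 fold 0.66). Jun, the main partner of Fos in AP-1, stood at 2268, 1864, 1584, 1226 and 1202 CPM in the high cells of Oil1 to Oil5. In their zero cells it was at 773, 853, 549, 587 and 382 CPM. Every high value lay above every zero value, and the log2 fold was 1.39 ± 0.06 (SE; edgeR adjusted p = 1.26e-17). Junb, a partner of Fos that restrains Jun, rose by 1.34 ± 0.07 and Jund by 0.93 ± 0.08. Fosb, a close relative of Fos, was low and rose by 2.22 ± 0.21, from 2.68 to 24.2 CPM in zero cells to 18.9 to 162 CPM in high cells.

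Of the Egr, Ier, Klf and Nr4a response genes 10 of 12 tested members rose and none fell (median log2 fold 1.14). Btg2, an antiproliferative early response gene that recruits mRNA deadenylases, was at 1545, 1158, 1138, 823 and 758 CPM in high cells of Oil1 to Oil5 and at 595, 486, 431, 341 and 307 CPM in zero cells. The classes did not overlap (log2 fold 1.35 ± 0.06, edgeR adjusted p = 6.24e-19). Ier5 rose by 0.96 ± 0.07. Klf2, a zinc finger factor of quiescent immune and endothelial cells, rose by 1.45 ± 0.14, and Id2, an inhibitor of helix-loop-helix factors, by 1.47 ± 0.16.

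Feedback genes rose with the activators. Of 12 tested genes that damp ERK signalling or speed mRNA decay, 7 rose and none fell (median log2 fold 0.59). Rgs1, a brake on chemokine receptor signalling, was at 334, 234, 175, 181 and 150 CPM in high cells and at 125, 98.0, 80.8, 66.5 and 50.5 CPM in zero cells of Oil1 to Oil5 (log2 fold 1.34 ± 0.10, edgeR adjusted p = 2.73e-12). Zfp36, which binds AU-rich mRNAs and sends them to decay, rose by 1.27 ± 0.09. Its relative Zfp36l1 rose by 0.63 ± 0.06. Errfi1, an inhibitor of the EGF receptor, rose by 1.35 ± 0.13.

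**Figure D3:**
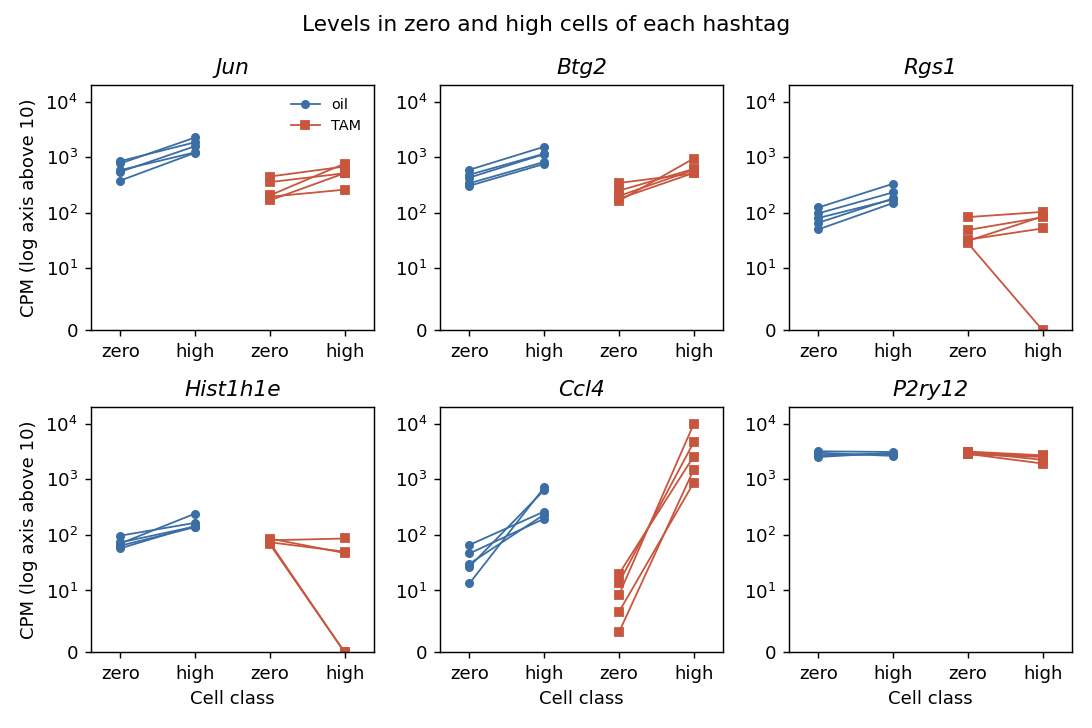
CPM of 6 genes in the zero and high cells of each hashtag (lines join the classes of 1 hashtag; the axis is logarithmic above 10 CPM). Jun, Btg2 and Rgs1 were higher in the high cells of all 5 oil hashtags, Ccl4 was higher in all 10 hashtags and highest in TAM high cells, and P2ry12 stayed between 1923 and 3187 CPM.

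Of NF-kB regulators and cytokines 7 of 16 rose (median log2 fold 0.57). They included Nfkbiz, a nuclear cofactor of NF-kB, at 1.52 ± 0.15, the cytokine gene Il1a at 1.03 ± 0.12, the surface receptor gene Cd83 at 1.01 ± 0.13 and the cytokine signalling inhibitor Socs3 at 1.28 ± 0.24. Of 7 chemokines tested 3 rose: Ccl4, Ccl3 and Ccl2, ligands that draw in leukocytes. Ccl4 was at 232, 263, 196, 639 and 712 CPM in high cells of Oil1 to Oil5, and at 30.3, 66.1, 46.3, 26.8 and 13.4 CPM in zero cells (log2 fold 3.55 ± 0.26, edgeR adjusted p = 4.15e-12). Oil4 and Oil5 were the highest. Ccl3 rose by 3.60 ± 0.36. Ccl2 stood at 804 CPM in Oil5 and at 18.8 to 63.6 CPM in the other 4. Its call (log2 fold 3.55 ± 0.60, edgeR adjusted p = 0.000163) was absent with DESeq2 (log2 fold 2.04, adjusted p = 0.9998), without the hashtag block (edgeR adjusted p = 0.0557) and without chemokine-positive cells (0.94, edgeR adjusted p = 0.181). Without Oil5 the Ccl2 log2 fold was 1.28, and Oil1 was lower in high than in zero cells.

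Ccl3 and Ccl4 RNA sat in a minority of the members. With at least 5 UMIs of the pair as a limit, set after the values were seen, 81 of 809 oil high cells (10.0%, exact binomial 95% interval 8.03 to 12.3%) and 16 of 1577 oil zero cells (1.01%) were chemokine-positive. The 81 cells and the other 728 had similar means of Jun (10.8 and 10.8 UMIs per cell), Fos (2.78 and 2.98) and Hist1h1c (0.778 and 0.772). Atf3 was at 1.68 and 0.709 UMIs per cell and Cd83 at 2.54 and 0.510. Without chemokine-positive cells in either class 155 oil genes were called, 148 of them higher.

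Of 12 heat shock genes 5 rose and none fell, at a median log2 fold of 0.18. Hspa8, the constitutive Hsp70, rose by 0.41 ± 0.06 and Hsp90aa1, the inducible Hsp90, by 0.41 ± 0.07. The cochaperone genes Bag3 and Dnajb1 rose by 0.83 ± 0.18 and 0.63 ± 0.15 (edgeR adjusted p = 0.00464 and 0.0122). Histone genes stood out after the results were seen: 9 of 16 tested Hist genes rose (median log2 fold 1.13), including the linker histone genes Hist1h1c at 1.28 ± 0.13 and Hist1h1e at 1.19 ± 0.12. The H3.3 gene H3f3b rose by 0.65 ± 0.06. Histone gene copies are alike in sequence, and how reads shared by copies were counted is not given in the sources used here. Of 18 tested genes on a list of transcripts reported in enzyme-dissociated microglia 17 rose (median log2 fold 1.27), and that list shares Jun, Junb, Jund, Zfp36, Ccl3, Ccl4 and others with the lists above. The method of dissociation is not given in the sources used here, and its part in these values was not tested.

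Few genes of resting or disease-associated microglia passed the test, as held for all genes tested in oil (1.92%). The median log2 fold of 20 homeostatic genes was 0.03. P2ry12, the ADP receptor of microglia, was at 2989, 2868, 2903, 3097 and 2633 CPM in high cells and at 2523, 2695, 2693, 3187 and 2997 CPM in zero cells of Oil1 to Oil5. Its classes overlapped (log2 fold 0.08 ± 0.05, edgeR adjusted p = 0.653). None of 13 disease-associated genes, 16 lysosome genes or 85 ribosomal protein genes passed the test, at median log2 folds of -0.01, 0.00 and -0.05. At a share of 1.92% over all genes, lists of these sizes may hold no call without differing from other genes. In 4 further lists 1 gene rose: Pcna, the DNA polymerase clamp, of 6 cell cycle genes, Btg1 of 7 p53 targets, the nuclear RNA Neat1 of 7 noncoding or speckle genes and the helicase Eif4a1 of 12 translation factors. In this order they were higher in 3, 5, 4 and 5 of the 5 hashtags. Over 16 alternatives they kept the call in 9, 14, 11 and 4. The median log2 fold of 7 interferon response genes was -0.43 in oil, and -1.98 in TAM, where none passed and all genes had a median of -0.26. Of these Bst2, a tether of enveloped viruses, fell in oil by 0.46 ± 0.12 (edgeR adjusted p = 0.024), in 4 of 5 hashtags. Tnfsf13b, the B cell survival factor BAFF, fell by 0.79 ± 0.21 in all 5 (edgeR adjusted p = 0.0369). The third gene that fell was Gm12353, an unnamed locus mentioned after its values were seen.

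Several genes increased with the sum. Over the pooled oil cells with a sum of 0, 1 to 2, 3 to 4, 5 to 9 and 10 or more, Jun stood at 552, 985, 1384, 1726 and 2178 CPM. Hist1h1c went from 51.4 through 73.6, 93.0 and 124 to 157 CPM. Oil1 gave 153 of the 247 cells with a sum of 10 or more, so these pooled values weigh the hashtags unequally. Within single hashtags Jun ranged from 382 to 853 CPM at a sum of 0 and from 1163 to 2087 CPM at a sum of 5 to 9, while the lowest hashtag of Hist1h1c was at 41.0 CPM at a sum of 10 or more. Ccl2 did so unevenly, at 9.38, 13.5, 24.1, 21.4 and 122 CPM over the same pooled classes. At a sum of 10 or more its single hashtags ranged from 22.1 to 4895 CPM. P2ry12 did not increase with the sum and stayed between 2802 and 3067 CPM. Against the cells with a sum of 1 to 4 in place of zero cells, 62 genes rose and none fell by the same edgeR test, with 22 of the 34 named oil calls kept. At a matched 3000 UMIs a UMI of Jun was found in 95.9% of oil high cells and 62.5% of oil zero cells (98.4 and 68.7% before thinning). The same shares were 16.8 and 4.49% for Ccl4 (20.9 and 5.45% before), and 99.1 and 99.3% for P2ry12 (99.9 and 98.5% before).

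**Figure D4:**
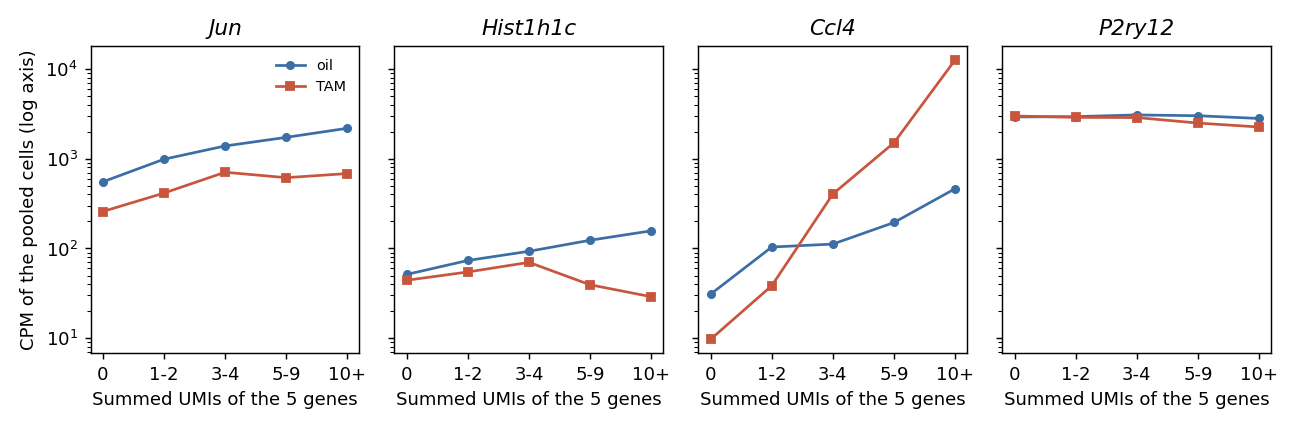
CPM (log axis) of Jun, Hist1h1c, Ccl4 and P2ry12 over the pooled cells of each class of summed UMIs of the 5 selecting genes, for oil and TAM. The pooled values of Jun and Hist1h1c increased over all 5 classes in oil. Pooled Ccl4 reached 463 CPM in oil and 12571 CPM in TAM at a sum of 10 or more (11 TAM cells). Pooled P2ry12 stayed between 2250 and 3067 CPM, with single hashtags lower at a sum of 10 or more.

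The 41 high cells of TAM hashtags were led by chemokines. Of 9035 genes tested against TAM zero cells, 66 rose (0.73%) and 13 fell (0.144%), 79 in all (0.874%; edgeR, hashtag as a block), 866 had an unadjusted p below 0.05, and the median log2 fold of all genes was -0.26 (-0.12 with library size scaling). Ccl4 was at 2570, 4601, 9737, 1480 and 861 CPM in high cells of TAM1 to TAM5 and at 19.7, 13.8, 9.27, 3.20 and 6.51 CPM in zero cells. The classes did not overlap (log2 fold 8.08 ± 0.34, edgeR adjusted p = 1.61e-118). This p-value leans on variation shared across genes, while the 5 hashtags spread from 861 to 9737 CPM in high cells. Ccl3 rose by 7.44 ± 0.35 and Ccl2 by 7.57 ± 0.38, as did Cd83 by 2.84 ± 0.32 and Id2 by 2.84 ± 0.38. Csf1, the growth factor of microglia, rose by 4.30 ± 0.37, with 94 UMIs in high cells and none in TAM4 and TAM5. Egr3 had 73 UMIs in the 41 high cells and 1 UMI in the 3225 zero cells, and Egr2 had 26 and 7. Csf1, Egr2 and Egr3 were picked after their values were seen.

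These calls rested on few cells. By the same limit 16 of the 41 cells were chemokine-positive (39.0%, exact binomial 95% interval 24.2 to 55.5%), 7 of them among the 8 cells of TAM3, against 8 of 3225 TAM zero cells (0.248%). The 5 richest cells held 72.1% of the members' Ccl3 and Ccl4 UMIs. Such concentration was also seen in the oil hashtags with few members, where the 5 richest cells held 85.8% in Oil4 (69 cells) and 100% in Oil5 (24 cells, 2 of them chemokine-positive). Without chemokine-positive cells 0 genes rose and 1 fell of 8888 tested with edgeR, the only tool run there. An unadjusted p below 0.05 was held by 723 of them, of which only 60 were higher. For Ccl3 and Ccl4 the lost rise follows from how the cells were left out. Without TAM3 33 genes were called and without TAM2 46. With equal numbers of high and zero cells matched in depth 15 were called, but only 1102 genes had enough counts to test. In the 16 cells Egr1 and Atf3 stood at 7.69 UMIs per cell each and Fos at 0.875, against 3.16, 1.16 and 1.24 in the other 25.

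Of the oil response, the TAM high cells showed a part. Btg2 was at 510, 615, 594, 522 and 947 CPM in high cells and at 345, 250, 200, 179 and 164 CPM in zero cells of TAM1 to TAM5 (log2 fold 1.17 ± 0.29, edgeR adjusted p = 0.00722). Junb rose by 1.74 ± 0.29 and Zfp36 by 1.51 ± 0.35. Btg2 and Zfp36 lost the call without TAM2 (edgeR adjusted p = 0.231 and 0.183) and without TAM3 (0.275 and 0.535). All of Btg2, Junb and Zfp36 lost it without chemokine-positive cells (edgeR adjusted p = 0.786, 0.619 and 0.619). Their log2 folds there were 0.53 ± 0.44, 0.85 ± 0.46 and 0.90 ± 0.49. With 25 high cells left, that setting cannot tell a smaller rise from lower precision. Jun stood 0.84 ± 0.29 higher on the log2 scale, short of the threshold (edgeR adjusted p = 0.206), nor did Rgs1 at 0.42 ± 0.48 (adjusted p = 0.834). The genes that rose in both numbered 27, which was 15.7% of the 172 in oil and 40.9% of the 66 in TAM. Of the 154 oil genes that could be tested in TAM, 120 (77.9%) had a log2 fold above 0, against 31.8% of all genes tested there. None of 12 Hist genes tested in TAM passed the test (median log2 fold -0.61), none of 11 heat shock genes and none of 20 homeostatic genes. With 0.874% of all genes called in TAM, lists of these sizes may hold no call without differing from other genes. The homeostatic median was -0.52, against -0.26 for all genes tested, and Cx3cr1 was at 1132 to 1569 CPM in TAM high cells and 1955 to 2129 CPM in TAM zero cells (edgeR adjusted p = 0.175). By list, 1 of 10 AP-1 and CREB, 5 of 11 Egr, Ier, Klf and Nr4a, 1 of 12 feedback, 4 of 16 NF-kB and cytokine and 4 of 7 chemokine genes rose.

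The difference between high and zero cells itself differed between treatments for some genes. An interaction test over all 10 hashtags called 86 of 9577 genes (0.898%), 50 with a larger log2 fold in TAM (0.522%) and 36 with a smaller one (0.376%; edgeR). Ccl4, Ccl3 and Ccl2 had log2 folds larger by 4.85 ± 0.24, 3.88 ± 0.34 and 4.03 ± 0.38 in TAM. Cd83 was larger by 1.96 ± 0.23 and Slc15a3, a lysosomal peptide transporter, by 1.10 ± 0.22. Without TAM3 the Slc15a3 value was 0.60 and no longer passed (edgeR adjusted p = 0.415). Hist1h1e differed the other way by -2.41 ± 0.44 (edgeR adjusted p = 3.32e-05): it rose in oil and was at 9 UMIs in all TAM high cells. For Jun (-0.55 ± 0.21, edgeR adjusted p = 0.227), Btg2 (-0.28 ± 0.21, adjusted p = 0.644) and Junb (0.28 ± 0.20, adjusted p = 0.634) no difference was shown. Without chemokine-positive cells 6 genes were called. Leaving out 1 hashtag gave 28 calls without TAM3, 39 without Oil3, 54 without Oil2 and 142 without TAM1.

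**Figure D5:**
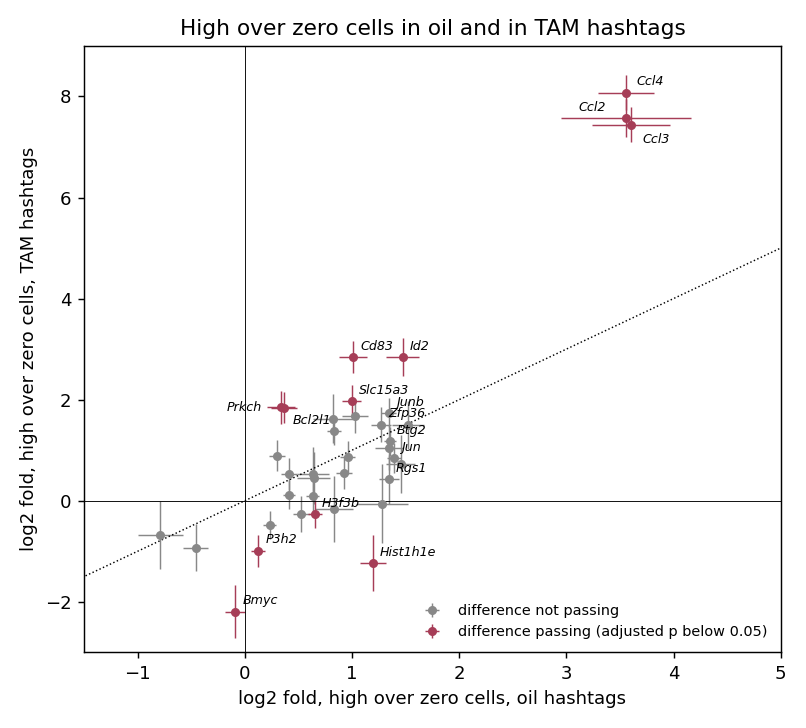
Log2 fold of high over zero cells in oil (x axis) and TAM (y axis) hashtags for the named genes tested in both, with SE bars and the line of equality dotted. Genes in red had an interaction adjusted p below 0.05, among them Ccl4, Ccl3 and Ccl2 at TAM log2 folds of 8.08, 7.44 and 7.57 and Hist1h1e at -1.23.

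Compared directly, TAM high cells held more chemokine RNA and less Jun RNA than oil high cells. Of 2808 genes with enough counts, 36 were higher in TAM (1.28%) and 11 lower (0.392%), 47 in all (1.67%; edgeR). Jun was at 680, 515, 769, 261 and 517 CPM in high cells of TAM1 to TAM5, all below the lowest oil hashtag (log2 fold -1.41 ± 0.22, edgeR adjusted p = 0.000707). Zero cells showed the same direction for Jun, at -1.19 (edgeR adjusted p = 0.0112). Ccl3 and Ccl4 were higher by 4.18 ± 0.45 and 3.53 ± 0.43. Their zero cells went the other way or did not pass, with Ccl4 at -1.76 (edgeR adjusted p = 0.0276) and Ccl3 at -0.35 (adjusted p = 0.837). Cd83 was higher by 2.05 ± 0.32, the survival gene Bcl2l1 by 2.002 ± 0.25 and the protein kinase C gene Prkch by 2.08 ± 0.33. H3f3b was lower at -0.99 ± 0.19 and the collagen hydroxylase gene P3h2 at -1.02 ± 0.20. The Myc relative Bmyc stood at -2.01 ± 0.42 and Hist1h1e at -2.07 ± 0.44. Zero cells were also lower in TAM for H3f3b, at -0.36 (edgeR adjusted p = 0.000941). Btg2 was lower in both classes, at -0.88 in high and -0.90 in zero cells (edgeR adjusted p = 0.026 and 0.0112). Cd83, Bcl2l1, Prkch, P3h2, Bmyc and Hist1h1e did not pass in zero cells (edgeR adjusted p from 0.132 to 0.771). Bmyc was at 106 to 150 CPM in oil high cells and at 9.45 to 87.1 CPM in TAM high cells, from 8 UMIs in all. Bmyc lost the call without TAM1 (edgeR adjusted p = 0.0975) and Hist1h1e without TAM3 (adjusted p = 0.0605).

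Without chemokine-positive cells 2 genes were called, both lower in TAM, without TAM3 18 and without TAM1 111. With only the 7 hashtags that had at least 10 high cells 8 genes were called. With a sum of at least 10 as the limit 3 of the 526 genes tested were called, all lower.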

How the data were processed

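The authors deposited 1 table of unnormalized UMI counts covering genes and hashtags. Per the file headers it came from Cell Ranger 7.0.0, and the submitters' processing notes name mm10 as the build. How its 9975 barcodes (none repeated) were picked, and how strand and multi-mapped reads were treated, is not given in the sources used. The counts held 51821041 gene UMIs over 32285 genes. HTODemux in Seurat 5.3.0 (centred log ratios, quantile 0.99) called 8055 barcodes single, 1737 mixed and 183 negative. Cells with under 500 genes, under 1000 UMIs or over 10% mitochondrial UMIs were dropped. Counts were summed per hashtag and class, and hashtags, not cells, were the replicates. The main test was edgeR 4.0.16 (TMM, filterByExpr, quasi-likelihood F test, Benjamini-Hochberg at 0.05 over all genes tested, hashtag as a block between classes), checked on simulated data, with DESeq2 1.42.0 as an alternative. Log2 folds are high over zero cells, TAM minus oil, or TAM over oil; their SE is the absolute log2 fold over the square root of F. CPM are per total UMIs. Intervals cover counting error only. Cells, gene lists and most tests were chosen with earlier results of these data known. Genes were named by rule: in oil the 10 higher and 10 lower with the smallest p among calls in the same direction in all 5 hashtags, up to 4 called members per list, and 5 higher and 5 lower in TAM against oil, without clone, ribosomal, mitochondrial and sex-linked genes. Other names were picked after their values were seen, and 1 gene that the rule names is not reported here. Promoters are from RefSeq (GRCm38.p6).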

Additional observations from a re-analysis of the deposited data

Results flagged for a closer look

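For 12 named genes the log2 fold of high over zero cells differed between treatments by the interaction test (edgeR adjusted p below 0.05, TAM minus oil). It was larger in TAM for Ccl4 by 4.85, Ccl2 by 4.03, Ccl3 by 3.88, Cd83 by 1.96, Prkch by 1.60, Bcl2l1 by 1.56, Id2 by 1.37 and Slc15a3 by 1.10. It was smaller in TAM for Hist1h1e at -2.41, Bmyc at -2.17, P3h2 at -1.001 and H3f3b at -0.81. The TAM side holds 41 cells, 16 of them chemokine-positive. Without TAM3 the values of Prkch (0.96, adjusted p = 0.288), Slc15a3 (0.60, adjusted p = 0.415), Id2 (1.30, adjusted p = 0.0771) and P3h2 (-0.87, adjusted p = 0.112) no longer passed with edgeR, nor did Bmyc without TAM1 (-1.57, adjusted p = 0.102) or H3f3b without Oil1 or Oil3 (adjusted p = 0.104 and 0.120). Over 15 alternatives Id2 kept the call in 7 and P3h2 in 9.

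Among the oil hashtags Oil5 stood apart for Bst2, with a log2 ratio of high over zero cells of 0.37 (1 CPM added), where the other 4 were below 0. Oil5 has 24 high cells, and chance sets 1 sample apart in about 1 in 20 groups.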

How the results depend on the processing

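The calls in oil numbered 175. They were 99 with DESeq2, 84 with a sum of at least 10 and 62 against cells with a sum of 1 to 4, and 105 to 216 with 1 hashtag left out. The other settings gave 134 (depth-matched cells) to 226 (sum of at least 3), with 206 without the replicate block. In TAM, 79 calls became 132 with library size scaling and 165 without the replicate block. They were 15 with depth-matched cells, where only 1102 genes were tested, and 39 with a sum of at least 10. With only hashtags of at least 10 high cells they were 34, without chemokine-positive cells 1, and with 1 hashtag left out 33 to 80. Between treatments in high cells, 47 calls became 92 with DESeq2, 168 without a filter on low counts (76 higher, 92 lower), 75 with sex as a covariate, 30 and 3 with a sum of at least 3 and 10, 8 with only hashtags of at least 10 high cells and 2 without chemokine-positive cells, and 18 to 111 with 1 hashtag left out. The interaction's 86 calls became 36 with depth-matched cells, where 3587 genes were tested, and 33 with a sum of at least 3. They were 16 with only hashtags of at least 10 high cells, 6 without chemokine-positive cells and 28 to 142 with 1 hashtag left out. The mean TAM share was 2.69% with a sum of at least 3.

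Without chemokine-positive cells, a setting chosen after the data were seen, 5 log2 folds changed sign: Id2 (-0.64) and Il1a (-1.18) in TAM, Slc15a3 between treatments (-0.27), and Slc15a3 (-0.31) and Id2 (-1.93) in the interaction. The cause was not tested. No named oil gene changed sign: of 543 combinations of 34 genes and settings 463 kept the call and 80 lost it, among them calls of Eif4a1, Bst2, Tnfsf13b, Pcna, Bag3 and Dnajb1. The hashtag numbers do not pair the treatments in the labels, and same-numbered high cells correlated by -0.00 to 0.11 in their deviations, so the replicate block, with 60 calls, is given only here. In TAM 3 hashtags held fewer than 10 high cells.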
